A study of Bos taurus with 16 samples.

Results

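The proteases that cut extracellular matrix, and the proteins that hold them in check, were described in the corpus luteum of cyclic and pregnant cows. Members were taken by gene symbol. They were the matrix metalloproteinases (MMP), their tissue inhibitors (TIMP), the ADAM and ADAMTS families, the cathepsins (CTS), the serpins other than SERPING1, and PLAT, PLAU and PLAUR. The symbol was the first gene name given for a spot (46 members), or the human symbol in brackets in its description (2 members). For 6 members, ADAMTSL3 and ADAM15 among them, that description stood in the field for the systematic name and was read there. Where this took several spots of a gene, as for MMP15, the brightest was used. For 9 other members a further probe of the same gene stands on the array under older names and a human accession and is not taken by symbol, among them brighter probes for MMP9, MMP14 and TIMP3. This gave 54 genes of 15208 probes on the array: 12 MMP, 4 TIMP, 7 ADAM, 6 ADAMTS or ADAMTSL, 9 cathepsin and 13 serpin genes, and the 3 genes of the plasminogen activators and their receptor. Of these, 53 were found in the RefSeq table of the assembly ARS-UCD2.0, and ADAM1 was not. That table calls the CTSL probe CTSV, the MMP23B probe MMP23 and the SERPINA5 probe LOC338050. ADAMTS1 was not found among the names on the array.

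RNA was extracted from the corpus luteum, the gland that secretes progesterone after ovulation, of 16 Japanese Black cows in 4 groups of 4 animals. The cyclic group was not pregnant and was on days 10-12 of the estrous cycle. The pregnant groups were on days 20-25, 40-45 and 150-160 of gestation, counted from insemination as day 1. No group carried a treatment or a transgene. The series compares gene expression in this gland between the cycle and pregnancy. Ages of the cows were not given in the sources used here. Glands of later gestation are also older, and an effect of age cannot be told apart from one of pregnancy. RNA of the whole gland was measured, in which fewer cells of a type and less RNA per cell cannot be told apart.

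Matrix metalloproteinases and ADAMTS enzymes are zinc-dependent proteases that cleave collagens and proteoglycans outside the cell, and TIMPs bind and block them. ADAM proteins are anchored in the membrane and release growth factors and receptors from the cell surface. Cathepsins are proteases of the lysosome, plasminogen activators turn plasminogen into the fibrin-cutting protease plasmin, and most serpins trap serine proteases. The corpus luteum is built and broken down in each cycle with extensive remodelling of its matrix, and it is kept when pregnancy begins.

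The values of a member come from 1 oligonucleotide probe of 60 bases. The probes of the 3 members that were called higher in pregnancy are shown because these rises rest on them. The sequences come from the array files and are written 5′ to 3′ with no bases in capitals. For ADAMTSL3 the first 30 bases are shown.

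SERPINA1: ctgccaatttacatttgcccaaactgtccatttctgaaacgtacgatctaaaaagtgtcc

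ADAMTSL3: tatcattcaaatgacattgctgtgtactgt

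ADAM15: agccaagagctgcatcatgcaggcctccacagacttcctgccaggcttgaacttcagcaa

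Each sequence occurred on the array in 1 probe. Their G and C contents were 40.0% for SERPINA1, 30.0% for the ADAMTSL3 probe over its whole length and 55.0% for ADAM15, within the range of all probes (13.3% to 85.0%, median 43.3%). Positions of the probes in the genome were not analysed here.

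Levels are log2 signals relative to the 75th percentile of the array, so a level of 0 is that percentile and a difference of 1 is a 2-fold difference. The 75th percentile lay between 2020.5 and 4288.4, 71.9% to 79.6% of all probes were well above background, and of the members 45 to 48 were. The arrays lay on 2 slides with 2 arrays of every group on each. A group had the same places on both slides, so place on the slide and group cannot be told apart. The 8 markers of steroid-producing luteal cells were above background on at least 1 array of every group. On days 150-160 against cyclic cows 6 of the 8 had a positive difference and the median was 0.25, with PTGFR called higher (0.85) and OXT called lower (-7.97). The number of arrays, 4 a group, limits the precision of every value. Differences were tested with limma over all probes, and a gene was called where its Benjamini-Hochberg adjusted p was under 0.05.

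A member was tested if at least 3 of 4 arrays of a group were well above background, which held for 46 of 54. The 8 others were MMP3, MMP13, MMP16, MMP20, ADAM1, ADAMTS2, SERPINA7 and SERPINB2. ADAM1 was above background on no array, and none of the others on more than 2 arrays of any group. MMP3, MMP13 and MMP20, a stromelysin, a collagenase and the enamel protease enamelysin, are neighbours on 1 chromosome together with MMP1 and MMP7.

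Of the 46 tested members 7 were called in at least 1 comparison. ADAMTSL3, SERPINA1 and ADAM15 rose in pregnancy, while ADAM12, CTSC and MMP2 were lowest on days 150-160 and SERPINA5 was lowest on days 40-45. Against cyclic cows 0 of 46 tested members were called on days 20-25, where 0.293% of all probes were called. On days 40-45 the count was 3, with 1.23% of all probes called, and on days 150-160 it was 5, with 7.98% of all probes called. These comparisons share the 4 cyclic cows. Between stages 5 members were called on days 150-160 against days 20-25 (1.57% of all probes). None was called on days 40-45 against days 20-25 (0.0335% of all probes) or on days 150-160 against days 40-45 (0.0419% of all probes). The moderated F test of limma over the 4 groups called 7 members, against 3.85% of all probes. In the 6 comparisons in the order given, 6, 12, 13, 14, 14 and 9 members had an unadjusted p under 0.05, beside 14.1%, 14.7%, 23.5%, 13.9%, 8.41% and 9.22% of all probes. Groups did not overlap in 2, 7, 7, 9, 8 and 8 members, beside 7.45%, 9.7%, 11.7%, 8.66%, 8.88% and 6.42% of all probes. The 13 called differences are among these.

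**Figure D1:**
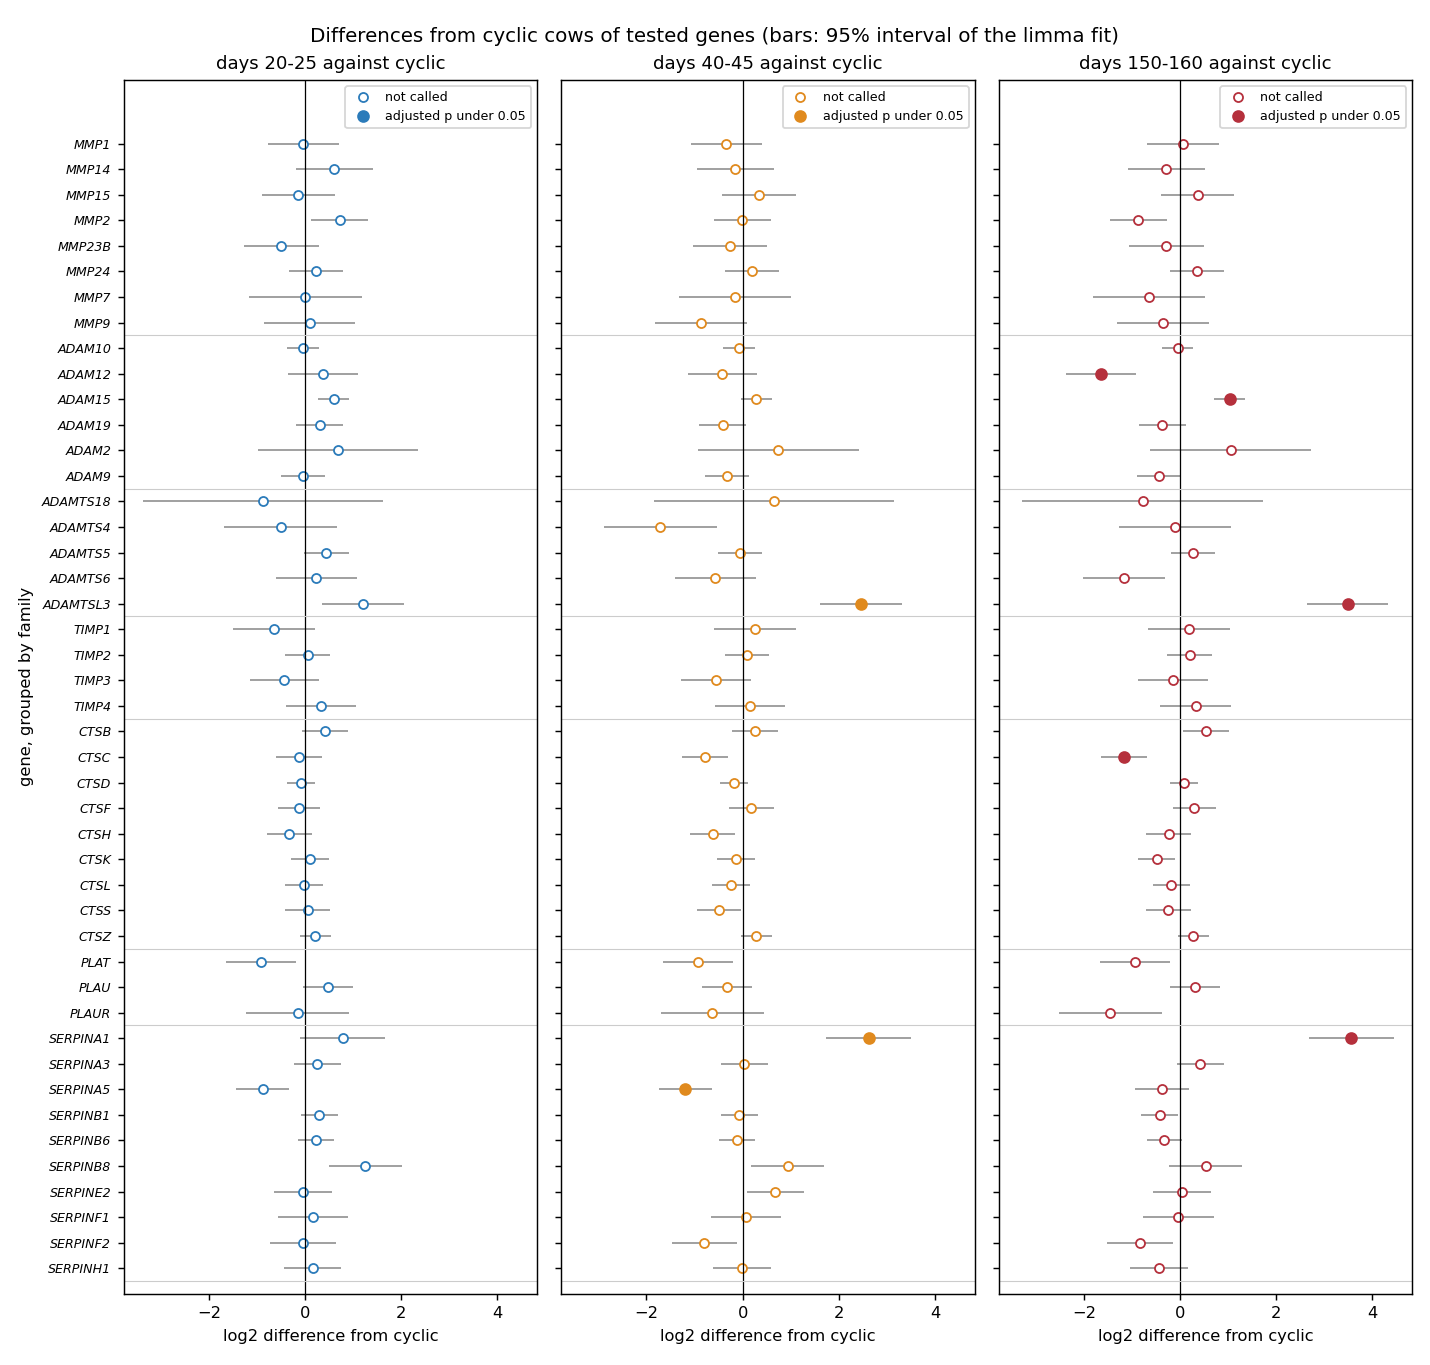
Log2 differences of each pregnancy stage from cyclic cows (x axis, 1 panel a stage) for the tested members but 1 (y axis, grouped by family), with 95% intervals of the limma fit; filled points were called. Filled points are absent on days 20-25, number 3 on days 40-45 and 5 on days 150-160, with ADAMTSL3 and SERPINA1 farthest to the right. The SERPINA1 points stand against cyclic cows below background, and with those values raised to the dimmest signal above it they would lie at 1.13 on days 40-45 and 2.07 on days 150-160.

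The median difference of the 46 members was 0.07 on days 20-25, -0.13 on days 40-45 and -0.17 on days 150-160, beside 0.05, 0.01 and 0.03 over all probes tested. Of the members, 19 had a positive difference on days 150-160 against cyclic cows (41.3%, and 52.7% of all probes). On days 40-45 against days 20-25 it was 11 of 46 (23.9%, and 41.4% of all probes). Cows of a group differed more in these genes than in the array as a whole. In order of stage from cyclic cows, the median SD of the members was 0.43, 0.32, 0.30 and 0.41, beside 0.30, 0.25, 0.21 and 0.31 over all probes.

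Among the matrix metalloproteinases MMP2, gelatinase A, was the 1 called gene of 8 tested. Its levels in cyclic replicates 1 to 4 were -1.60, -1.49, -1.92 and -1.55. On days 20-25 they were -1.21, -1.54, -1.02 and 0.09. Replicate 4 of days 20-25 was the highest of all 16 cows. On days 40-45 the levels were -1.97, -1.72, -1.67 and -1.25, and on days 150-160 -2.30, -2.37, -2.51 and -2.84. All 4 cows of days 150-160 lay below all 12 others. MMP2 was 3.0-fold lower on days 150-160 than on days 20-25 (log2 difference -1.59, SE 0.28, limma adjusted p = 0.0095). Against cyclic cows the difference on days 150-160 was -0.87 (adjusted p = 0.0691), which did not pass. Without the high replicate 4 of days 20-25 that comparison passed (adjusted p = 0.00967). This cow is in neither group compared, so the difference stayed -0.87, and only the spread shared by all groups was estimated anew.

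A second, dimmer probe for MMP2, which carries a human accession, gave -0.31 on days 150-160 against days 20-25 (SE 0.55, adjusted p = 0.854). The call therefore rests on 1 of 2 probes. The difference of the brighter probe was -0.96 on slide 1 and -2.21 on slide 2.

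MMP14, the membrane-bound activator of pro-MMP2, had means of -4.78 ± 0.69, -4.18 ± 0.62, -4.94 ± 0.43 and -5.07 ± 0.51 (SD, n = 4) in cyclic cows and the 3 stages of pregnancy in order. It was not called in any comparison, and its groups overlapped. Its difference on days 150-160 against days 20-25 was -0.90 (adjusted p = 0.29). The second MMP14 probe was far brighter, with means of 1.71, 2.43, 1.88 and 1.45 in the same order, and gave -0.98 (adjusted p = 0.2). MMP9, gelatinase B, read -2.77, -0.45, -2.41 and -2.34 in cyclic replicates 1 to 4. Replicate 2 stood above its group, and the pregnant cows lay between -3.33 and -0.85. The largest MMP9 difference from cyclic cows, on days 40-45, was -0.86 (95% interval -1.81 to 0.09, adjusted p = 0.402). The further MMP9 probe gave positive differences of 0.18, 0.20 and 0.36 on days 20-25, 40-45 and 150-160, also not called (adjusted p = 0.87, 0.895 and 0.658). On days 40-45 and 150-160 the probes differ in sign. MMP1, interstitial collagenase, read -3.95 in cyclic replicate 2 and -6.08 to -5.72 in the other 3 cyclic cows. It differed from cyclic cows by 0.05 on days 150-160 (adjusted p = 0.946). The median over the 8 tested MMP genes was -0.29 on days 150-160 against cyclic cows, and 5 of 8 were negative.

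The TIMP genes gave 0 calls of 4 tested in all 6 comparisons, and 1 of 4 had an unadjusted p under 0.05 in any, on days 40-45 against days 20-25. TIMP1 read 5.17, 5.96, 4.84 and 4.66 in cyclic replicates 1 to 4. On days 20-25 it ranged from 3.50 to 5.60, on days 40-45 from 5.01 to 5.71 and on days 150-160 from 4.97 to 6.14. The groups overlapped throughout. Its differences from cyclic cows were -0.65, 0.26 and 0.18 (SE 0.40 each), with intervals from -1.5 at the lowest to 1.11 at the highest. TIMP2 had means of 7.32 ± 0.42 (SD, n = 3, with 1 flagged cyclic spot missing), 7.37 ± 0.33, 7.41 ± 0.23 and 7.52 ± 0.12 (n = 4 each), in order of stage. Its interval on days 150-160 against cyclic cows was -0.27 to 0.66. TIMP3, which binds to matrix, read 2.12 in cyclic replicate 2 and 0.10 to 0.89 in the other 3 cyclic cows, and its differences from cyclic cows were -0.43, -0.55 and -0.15. Its further probe gave -0.20, 0.19 and 0.55 (adjusted p = 0.8, 0.865 and 0.31), with the opposite sign on days 40-45 and 150-160. The median of the 4 genes on days 150-160 against cyclic cows was 0.19. Further probes for TIMP1 and TIMP2 were not called either.

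ADAM12 and ADAM15 were the called genes of 6 ADAM genes tested, in opposite directions. ADAM12 encodes a membrane metalloproteinase known from fusing muscle cells and the placenta. It read -2.71, -2.33, -2.12 and -2.53 in cyclic replicates 1 to 4 and -2.03, -2.24, -2.43 and -1.51 on days 20-25. On days 40-45 the levels were -3.30, -2.77, -3.05 and -2.23, and on days 150-160 -3.24, -4.53, -3.56 and -4.92. The cows of days 150-160 lay below all cyclic cows and all cows of days 20-25, and overlapped with days 40-45. On days 150-160 ADAM12 was 3.12-fold lower than in cyclic cows (log2 difference -1.64, SE 0.34, adjusted p = 0.00984). It was 4.03-fold lower than on days 20-25 (log2 difference -2.01, adjusted p = 0.0075).

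ADAM15 encodes a metalloproteinase of endothelial and other cells with an integrin-binding site. Its levels were -5.71, -5.46, -5.62 and -5.71 in cyclic cows and -5.35, -5.22, -4.83 and -4.71 on days 20-25. They were -5.50, -5.17, -5.47 and -5.22 on days 40-45 and -4.47, -4.76, -4.53 and -4.63 on days 150-160. Days 150-160 did not overlap with cyclic cows. The rise on days 150-160 was 2.04-fold (log2 difference 1.03, SE 0.15, adjusted p = 0.00132). On days 20-25 the groups did not overlap either, but the difference of 0.60 did not pass (adjusted p = 0.101). The difference on days 40-45 was 0.29. The levels therefore did not follow the order of the stages. Endothelial markers were read beside ADAM15. Of 11 tested, 10 had a positive difference on days 20-25 against cyclic cows (median 0.50, 0 called), 10 on days 40-45 (median 0.17, 0 called) and 9 on days 150-160 (median 0.37, with ENG, FLT1 and TEK called higher). Averaged over the list, a cyclic cow had a level of -1.72 to -1.44, and the ranges were -1.19 to -1.0 for days 20-25, -1.44 to -1.25 for days 40-45 and -1.58 to -0.53 for days 150-160. On days 150-160 against days 20-25 ADAM15 differed by 0.43 (adjusted p = 0.194), while 5 of the 11 markers were positive and 6 negative (median -0.12). The part of these markers in the ADAM15 result was not tested. The other ADAM genes, ADAM2, ADAM9, ADAM10 and ADAM19, were not called.

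Of 5 ADAMTS or ADAMTSL genes tested 1 was called. ADAMTSL3 is built like the ADAMTS enzymes but lacks their protease domain, so it is a matrix protein and not a protease. Its levels were -2.04, -3.70, -2.08 and -2.19 in cyclic replicates 1 to 4 and -0.95, -1.62, -0.37 and -2.24 on days 20-25. They reached 0.13, -0.25, -0.11 and 0.07 on days 40-45 and 0.93, 1.53, 0.90 and 0.56 on days 150-160. Cyclic cows and cows of days 20-25 overlapped, and beyond them each later group lay wholly above the earlier ones. ADAMTSL3 rose 5.52-fold on days 40-45 (log2 difference 2.46, SE 0.40, adjusted p = 0.00744) and 11.2-fold on days 150-160 (3.48, adjusted p = 0.000216) against cyclic cows. On days 150-160 it was 4.85-fold higher than on days 20-25 (2.28, adjusted p = 0.0095). The step from days 20-25 to 40-45 was 1.26 (adjusted p = 0.407) and that from days 40-45 to 150-160 was 1.02 (adjusted p = 0.415), neither of which passed. ADAMTS4, ADAMTS5, ADAMTS6 and ADAMTS18 were not called, with differences from cyclic cows between -1.71 and 0.65.

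The 7 called genes are shown by cow in the plot of their levels.

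**Figure D2:**
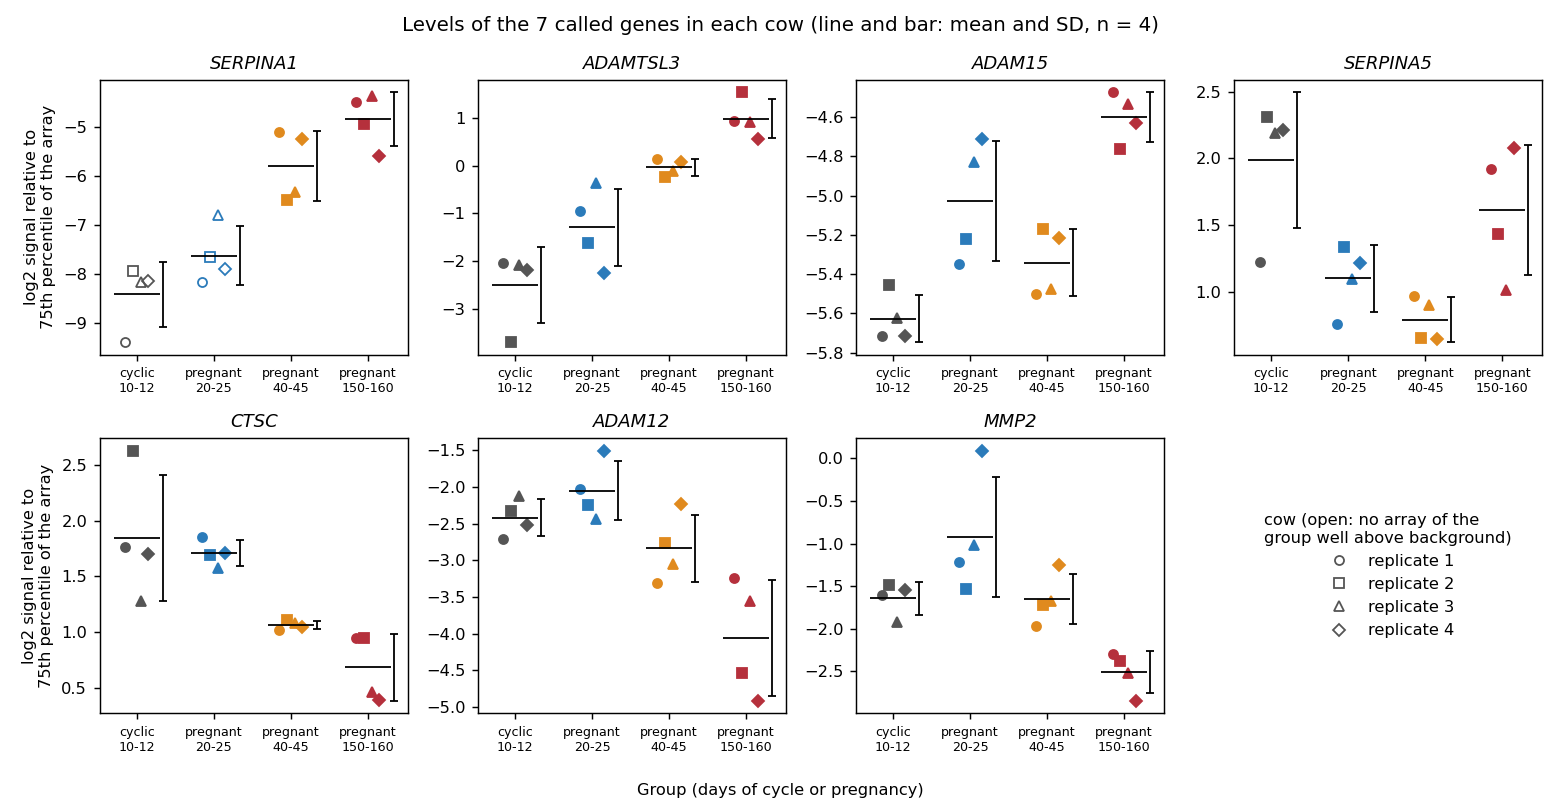
Levels of the 7 called genes (y axis, log2 signal relative to the 75th percentile of the array) in each cow of the 4 groups (x axis), with the mean as a line and the SD as a bar (n = 4); open symbols mark groups with no array well above background. ADAMTSL3 is highest on days 150-160, SERPINA1 is above background on days 40-45 and 150-160 alone, and ADAM12 and CTSC are lowest on days 150-160.

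Of 9 cathepsin genes, all tested, 1 was called. CTSC encodes dipeptidyl peptidase I, which activates the serine proteases of immune cell granules. Its levels in cyclic replicates 1 to 4 were 1.76, 2.63, 1.28 and 1.70, and on days 20-25 they were 1.86, 1.69, 1.58 and 1.71. Days 40-45 gave 1.02, 1.11, 1.08 and 1.05, and days 150-160 gave 0.95, 0.94, 0.46 and 0.39. Cows of days 40-45 and 150-160 lay below every cyclic cow and every cow of days 20-25. CTSC fell 2.24-fold on days 150-160 against cyclic cows (log2 difference -1.16, SE 0.22, adjusted p = 0.00671) and 2.04-fold against days 20-25 (-1.03, adjusted p = 0.0329). The difference of -0.78 on days 40-45 against cyclic cows did not pass (adjusted p = 0.107), but passed without cyclic replicate 3 (-0.97, adjusted p = 0.0348). The call against days 20-25 was lost without any 1 cow of days 20-25 or without replicate 2, 3 or 4 of days 150-160, with adjusted p up to 0.105.

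Most macrophage markers were lower on days 150-160, as CTSC was. Of 8 tested, 7 had a negative difference on days 150-160 against cyclic cows, 2 of them called (CD68 by -1.57 and MRC1 by -1.03), and the median was -0.76. On days 20-25 against cyclic cows, 7 of the 8 were negative (median -0.39). On days 150-160 against days 40-45, where CTSC differed by -0.38, it was 5 of 8 (median -0.01). Averaged over the list, a cyclic cow had a level of -1.35 to -0.17. The range was -1.5 to -1.16 for days 20-25, -1.99 to -1.49 for days 40-45 and -2.23 to -1.13 for days 150-160. Of 9 granulocyte markers 8 had a negative difference on days 150-160 against cyclic cows, with a median of -0.62 and CATHL1, CATHL3 and CATHL4 called lower. Already on days 20-25, where CTSC differed by -0.13, 9 of 9 were negative (median -0.88) and 3 called lower. Averaged over the granulocyte list, a cyclic cow had a level of -4.09 to -2.62, and the ranges were -5.03 to -4.40 for days 20-25, -5.02 to -4.58 for days 40-45 and -4.62 to -4.06 for days 150-160. In each pregnant group 3 of the 9 were above background on no array. Other immune lists did not all fall on days 150-160 against cyclic cows. Of 9 T and NK cell markers 5 were positive and 4 negative (median 0.10, 1 called lower). Both mast cell markers were positive (median 0.68, 0 called). Of 2 B and plasma cell markers 1 was positive and 1 negative (median -0.55, 1 called lower). The part of these lists in the CTSC result was not tested. CTSS, a cathepsin of antigen-presenting cells, had levels between 1.53 and 2.28 in cyclic cows and between 1.20 and 2.0 on days 150-160, which overlapped. Its difference from cyclic cows was -0.25 there and -0.49 on days 40-45 (adjusted p = 0.31). Days 40-45 against days 20-25 gave -0.54 for CTSS (adjusted p = 0.514), and it was not called in any comparison.

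CTSB, a broadly expressed lysosomal protease, lay between -2.02 and -1.55 in cyclic cows and between -1.48 and -1.01 on days 150-160. These ranges did not overlap, but the difference of 0.53 did not pass (SE 0.22, adjusted p = 0.162). It passed without replicate 4 of days 20-25 (adjusted p = 0.0326), a cow outside this comparison, with the difference unchanged at 0.53. CTSD, the aspartic protease of lysosomes, had levels of 3.27 to 3.86 in cyclic cows and 3.58 to 4.03 on days 150-160, which overlapped. Its difference there was 0.08 (95% interval -0.21 to 0.38). CTSK, which cleaves collagen and is best known from bone, had means of 1.52 ± 0.32, 1.62 ± 0.17, 1.38 ± 0.13 and 1.03 ± 0.34 (SD, n = 4) in order of stage. Its difference on days 150-160 against cyclic cows was -0.49 (adjusted p = 0.119), and it passed without replicate 3 of days 150-160 (-0.64, adjusted p = 0.0417). The 9 cathepsins had a median of -0.18 on days 150-160 against cyclic cows, with 4 positive and 5 negative.

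Fibroblast and stroma markers were lower on days 150-160, as were MMP2 and ADAM12. Of 7 tested, 7 had a negative difference on days 150-160 against cyclic cows, with a median of -0.51, and against days 20-25 the median was -0.71. The 3 called genes of the list were COL1A1, COL1A2 and COL3A1, which encode chains of collagens I and III and differed by -1.63, -2.72 and -1.13. Averaged over the list, a cyclic cow had a level of -0.02 to 0.87. The range was 0.42 to 1.12 for days 20-25, -0.11 to 0.72 for days 40-45 and -0.81 to -0.20 for days 150-160. Their part in the results for MMP2 and ADAM12 was not tested.

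The plasminogen activators and their receptor gave 0 calls of 3. PLAT, tissue plasminogen activator, read 3.33, 4.60, 5.12 and 4.77 in cyclic replicates 1 to 4. On days 20-25 it lay between 3.13 and 3.78, on days 40-45 between 3.25 and 3.84 and on days 150-160 between 3.12 and 4.32. Cyclic replicate 1 fell among the pregnant cows, and the 3 other cyclic cows lay above all 12 of them. The differences from cyclic cows were -0.92, -0.92 and -0.94 (SE 0.34 each), with adjusted p of 0.253, 0.209 and 0.106. Without cyclic replicate 1 all 3 passed, at -1.29, -1.29 and -1.31 (adjusted p = 0.0443, 0.0306 and 0.0121), so that cow decides whether PLAT is called.

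PLAU, urokinase, had means of -0.42 ± 0.24, 0.05 ± 0.41, -0.73 ± 0.34 and -0.10 ± 0.42 (SD, n = 4) in order of stage. Cows of days 40-45 lay below those of days 20-25 without overlap, but the difference of -0.78 did not pass (adjusted p = 0.399). PLAUR, the urokinase receptor, read -2.17, 0.91, -1.19 and -0.38 in cyclic cows and -2.49, -1.78, -1.98 and -2.37 on days 150-160. Its difference of -1.45 on days 150-160 against cyclic cows did not pass (SE 0.50, adjusted p = 0.0916). It passed without cyclic replicate 1, the lowest cyclic cow (-1.94, adjusted p = 0.021).

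SERPINB2, a serpin that inhibits urokinase, was not tested. It was above background on 2 cyclic arrays and on 2 arrays of days 150-160. In cyclic replicates 1 to 4 it read -7.39, -1.20, -9.17 and -5.08, with replicate 2 highest. In this cow 9 of 46 tested members lay over 1 log2 unit above the mean of the other 3 cyclic cows and 2 lay as far below. That is 23.9% of the members and 7.79% of all probes. Measured the same way within their groups, it was 23.9% of the members and 10.7% of all probes in replicate 4 of days 20-25 and 19.6% and 9.51% in cyclic replicate 1, and at most 13% of the members in the 13 other cows.

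SERPINE2, protease nexin 1, had means of 5.97 ± 0.38, 5.92 ± 0.51, 6.65 ± 0.19 and 6.01 ± 0.52 (SD, n = 4) in order of stage. The cows of days 40-45 lay above all cyclic cows, but the difference of 0.68 did not pass (adjusted p = 0.272). SERPINF2, the plasmin inhibitor alpha-2-antiplasmin, had a difference of -0.84 on days 150-160 against cyclic cows and was not called.

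**Figure D3:**
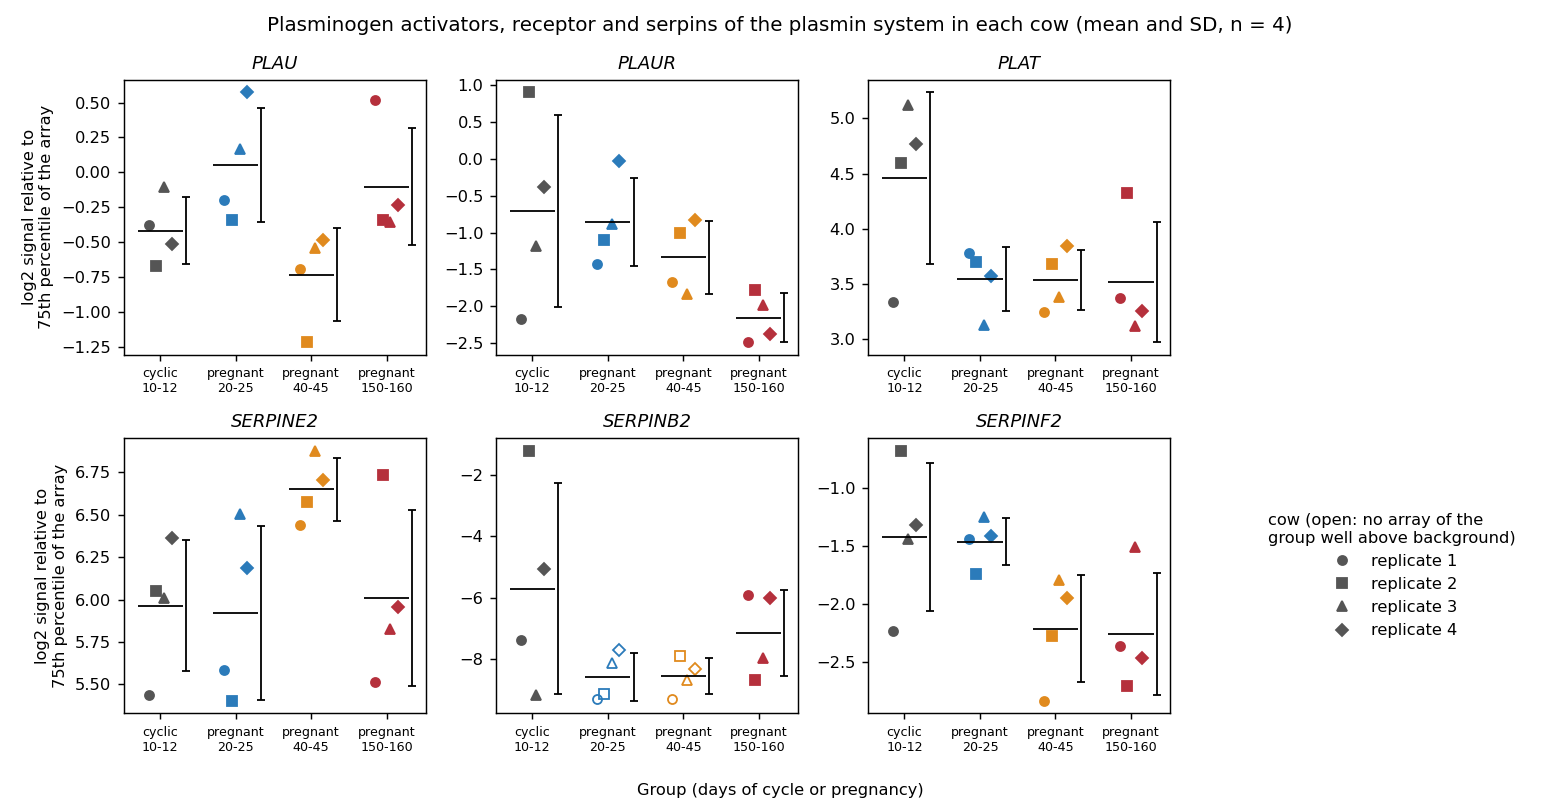
Levels of the plasminogen activators PLAT and PLAU, the receptor PLAUR and the serpins SERPINE2, SERPINB2 and SERPINF2 of the plasmin system (y axis, log2 signal relative to the 75th percentile of the array) in each cow of the 4 groups (x axis), with mean and SD (n = 4); open symbols mark groups with no array well above background. Cyclic replicate 2 is the highest cyclic cow for PLAUR, SERPINB2 and SERPINF2, and cyclic replicate 1 the lowest for PLAT and PLAUR.

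Of 11 serpins tested 2 were called, and they belong to the same cluster of SERPINA genes on 1 chromosome, with SERPINA3 between them. SERPINA1, alpha-1-antitrypsin, is the main blood inhibitor of neutrophil elastase. No array of cyclic cows or of days 20-25 was well above background for it, and there it read -9.39, -7.94, -8.18 and -8.14, and -8.17, -7.65, -6.80 and -7.90. On days 40-45 and 150-160 it was above background on all 4 arrays, at -5.10, -6.49, -6.32 and -5.26, and at -4.50, -4.94, -4.37 and -5.59. The 8 cows of the later stages lay above the 8 others. A group below background has only a bound, so its fold was taken against each array's dimmest signal still well above background, or the probe's own where that was higher. On this basis SERPINA1 was at least 2.18-fold higher on days 40-45 than in cyclic cows (measured log2 difference 2.62, SE 0.41, adjusted p = 0.00708). On days 150-160 it was at least 4.19-fold higher than in cyclic cows (measured log2 difference 3.56, adjusted p = 0.000226). Against days 20-25 it was at least 3.53-fold higher (measured 2.78, adjusted p = 0.00382). These adjusted p belong to the measured differences and not to the bounds. SERPINA1 passed the filter on dim probes only through days 40-45 and 150-160, where it was high. With all values below background raised to that signal, the difference on days 40-45 was 1.13 and did not pass (adjusted p = 0.103). That on days 150-160 was 2.07 (adjusted p = 0.00181), and against days 20-25 it was 1.82 (adjusted p = 0.00954). Over all alternatives the lowest SERPINA1 difference from cyclic cows was 0.72 on days 40-45 and 1.25 on days 150-160. For days 150-160 against days 20-25 the lowest was 1.05. These are smaller than the bounds, which therefore hold only for the processing of the main fit. The difference of 1.84 between days 20-25 and 40-45 did not pass (adjusted p = 0.225).

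Of 5 epithelium markers tested, 3 had a negative and 2 a positive difference on days 150-160 against cyclic cows, and the median was -0.02. CLDN10, a claudin of tight junctions, was the 1 called there, by 5.49, and on days 40-45 CLDN10 and UPK1B were called, by 2.51 and 3.20. Of the 6 markers on the array, tested or not, 1 was above background on no array of cyclic cows. The number was 2 for days 20-25 and 1 for days 150-160. The size of a difference from a group below background is only a bound. Averaged over the list, a cyclic cow had a level of -1.98 to -1.22. The range was -1.46 to -1.02 for days 20-25, -0.95 to -0.47 for days 40-45 and -1.11 to 0.18 for days 150-160. Their part in the SERPINA1 result was not tested.

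SERPINA5, protein C inhibitor by the name on the array, fell on days 40-45. It read 1.22, 2.31, 2.19 and 2.21 in cyclic cows and 0.76, 1.34, 1.1 and 1.22 on days 20-25. Days 40-45 gave 0.97, 0.65, 0.90 and 0.64, all below every cyclic cow, and days 150-160 gave 1.92, 1.43, 1.01 and 2.08, which overlapped with cyclic cows. It was 2.29-fold lower on days 40-45 than in cyclic cows (log2 difference -1.19, SE 0.26, adjusted p = 0.0408). The call needs most of the arrays: without any of 10 single ones it was lost, among them cyclic replicates 2, 3 and 4 and every replicate of days 40-45, with adjusted p up to 0.103. The difference of -0.88 on days 20-25 did not pass (adjusted p = 0.146), but passed without cyclic replicate 1, the lowest cyclic cow (-1.14, adjusted p = 0.0364). The other serpins, SERPINA3, SERPINB1, SERPINB6, SERPINB8, SERPINF1 and SERPINH1 among them, were not called. Cattle carry several near-identical SERPINA3 genes, so the SERPINA3 probe may read more than 1 of them.

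All 13 called differences had the same direction on each slide taken alone, where 2 cows stood against 2. The groups did not overlap in any of the 13, so this direction was fixed in advance and is no separate support. All 13 stayed called with slide as a block (adjusted p between 0.000411 and 0.0405). ADAMTSL3 differed from cyclic cows on days 150-160 by 4.10 on slide 1 and 2.87 on slide 2. ADAM15 differed by 0.97 and 1.09, ADAM12 by -1.37 and -1.91, and CTSC by -1.25 and -1.07. Within single slides 2 of the 13 passed the test, those of ADAMTSL3 and SERPINA1 on days 150-160 against cyclic cows on slide 1 (adjusted p = 0.028 and 0.0359). For SERPINA1 the cyclic arrays were below background on both slides, so its size there is only a bound.

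**Figure D4:**
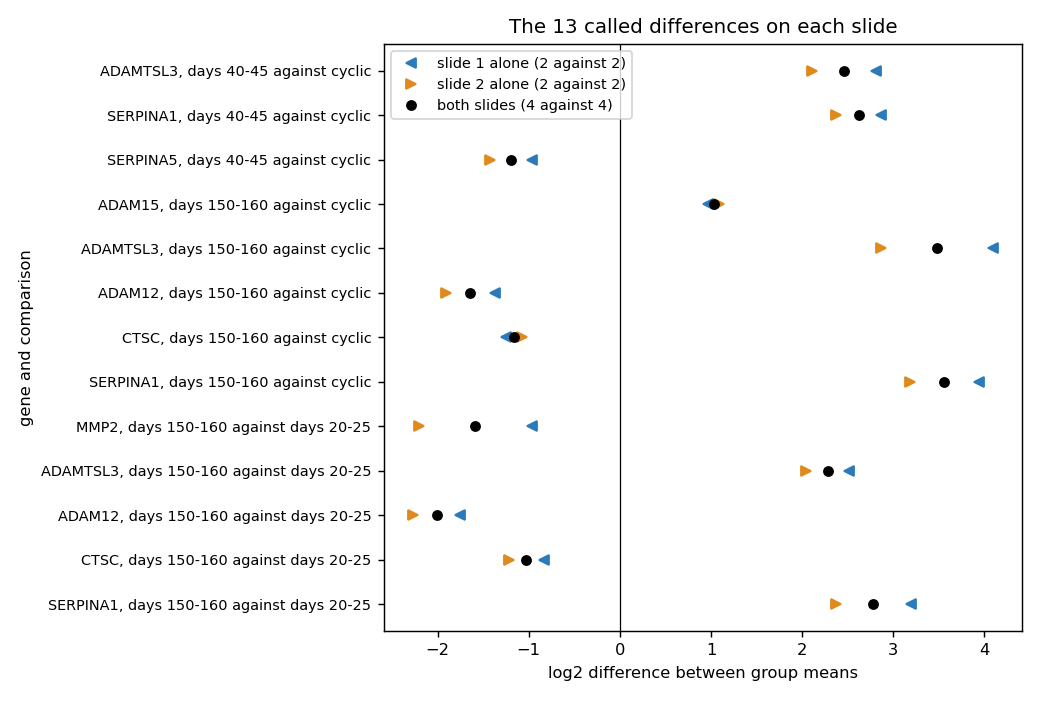
The 13 called differences (y axis, gene and comparison) as log2 differences between group means (x axis) on slide 1 alone, on slide 2 alone (triangles, 2 cows against 2) and on both slides (circles, 4 against 4). Each lies on 1 side of 0 on both slides, which was fixed in advance because the groups do not overlap. MMP2 is among those whose slides lie far apart, at -0.96 and -2.21. The SERPINA1 points stand against groups below background.

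A list of 59 partners of these proteases was read beside them: other protease inhibitors, activators, receptors, substrates and further matrix proteases. Of these 37 were on the array and 34 were tested. On days 20-25 against cyclic cows 0 were called, on days 40-45 0 were higher and 2 lower, and on days 150-160 2 were higher and 5 lower. Over all probes 0.293%, 1.23% and 7.98% were called in these comparisons. The median differences of the partners were -0.01, -0.06 and 0.02. TNFAIP6, which links matrix hyaluronan and binds inter-alpha-inhibitor, fell, with a difference of -2.02 on days 40-45 (adjusted p = 0.00563) and -2.67 on days 150-160 (adjusted p = 0.000216). IGFBP5, a growth factor carrier cut by several of these proteases, fell too, with differences of -2.06 and -1.79 (adjusted p = 0.0357 and 0.0222).

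On days 150-160 CD44, the hyaluronan receptor that also docks MMP9, fell with a difference of -2.17 (adjusted p = 0.00661). SPP1, the matrix protein osteopontin, fell with -2.54 (adjusted p = 0.028) and SPINT1, an inhibitor of membrane serine proteases, with -2.22 (adjusted p = 0.0136). SERPING1, the C1 inhibitor, rose by 1.41 (adjusted p = 0.0151) and PAPPA, a metalloproteinase that cleaves IGF binding proteins, by 0.75 (adjusted p = 0.0157). Against days 20-25 TNFAIP6 was the 1 partner called on days 150-160, by -2.28 (adjusted p = 0.00223), where 1.57% of all probes were called.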

How the data were processed

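Cy3-labelled RNA was hybridised to 1-colour bovine arrays, and scans were read with Agilent Feature Extraction 9.5, per the submitters' processing notes. Per the file headers, the authors' deposited processed signal is a linear intensity with background and spatial trend removed. The mean and background intensities deposited beside it were used for an alternative. The deposited value table is log2 of the processed signal minus about the log2 75th percentile of each array, as the values show (largest departure 0.00461, column medians -3.18 to -2.98), and was an alternative.

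Control spots (536 per array) were left out and 220 outlier spots set to missing. Levels are log2 processed signal minus its 75th percentile per array. The 11941 probes well above background on 3 of 4 arrays of a group were tested (11940 for comparisons of days 150-160 and the F test) with limma 3.58.1 in R 4.3.3, all 16 arrays, group as the term, with 12 residual and 2.77 prior degrees of freedom. Tests were two-sided, and the scripts were tested on simulated data. Within-group correlations were 0.960 to 0.992, with 0 identical values in any pair. Alternatives covered scaling, background correction, filters, slide, replicate number, probe choice, array weights and single arrays.

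Named were every called member and MMP1, MMP2, MMP9, MMP14, TIMP1, TIMP2, TIMP3, PLAT, PLAU, PLAUR, SERPINE2, SERPINA1, ADAMTSL3, ADAMTS1, CTSB, CTSD and CTSK, and called partners. CTSS, SERPINB2 and SERPINF2 were named after their values were seen. The values of 1 member are not reported here. Members and lists were chosen with earlier results of these data known.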

Additional observations from a re-analysis of the deposited data

Results flagged for a closer look

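Samples that stood apart from the 3 others of their group were found in 6 of 83 gene and group pairs, with Dixon's criterion for 4 values; chance alone marks about 1 in 20. In cyclic cows ADAMTSL3 read -3.70 in replicate 2, with -2.19 the nearest other value, and MMP1 read -3.95 in the same cow, with -5.72 the nearest. In cyclic replicate 1 SERPINA1 read -9.39 (nearest -8.18), where every cyclic cow was below background, and SERPINA5 read 1.22 (nearest 2.19). On days 150-160 PLAU read 0.52 in replicate 1 (nearest -0.23) and TIMP1 read 6.14 in replicate 3 (nearest 5.15).

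The difference from cyclic cows on days 150-160 differed from that on days 20-25 in 5 members, by the limma test of days 150-160 against days 20-25. The difference between the stages was 2.28 for ADAMTSL3, -2.01 for ADAM12, -1.59 for MMP2 and -1.03 for CTSC. For SERPINA1 it was 2.78 as measured, with no array of days 20-25 above background, and 1.82 (adjusted p = 0.00954) with such values raised to the dimmest signal above background.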

How the results depend on the processing

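No called difference changed direction under any alternative that was run. Fits that drop or weight arrays could not reverse one, since the groups did not overlap. Of 400 settings tried on called differences, 350 kept the call and 50 lost it. Of 3494 tried on uncalled differences, some of them of called genes, 17 gained a call. These are not independent trials. Updated names, the deposited value table, slide as a block and leaving out a cow of a group not compared leave a difference unchanged or nearly so. The count of called members was 0 and 0 for days 40-45 against cyclic cows, 2 and 0 for days 150-160 against cyclic cows, 0 and 0 for days 150-160 against days 20-25, and 0 and 0 in the F test within slides 1 and 2, where fewer arrays enter. With array quality weights it was 1 for days 20-25 against cyclic cows, 4 for days 40-45 against days 20-25 and 8 for days 150-160 against days 20-25. Quantile normalization gave 1 for days 40-45 against days 20-25, and a fit of only the groups compared gave 3 for days 150-160 against days 20-25. Leaving out 1 array gave 0 to 2 for days 20-25, 2 to 4 for days 40-45 and 5 to 8 for days 150-160 against cyclic cows, each highest without cyclic replicate 1. It gave 4 to 6 for days 150-160 against days 20-25, and 4 (without days 150-160 replicate 2) to 8 in the F test. For days 40-45 against days 20-25 and days 150-160 against days 40-45 it gave 0 throughout. The share of all probes called was not taken in these alternatives. A change in the count of members therefore cannot be told apart from a general change in calls.

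In a fit of only the groups compared, ADAM12 and CTSC on days 150-160 against cyclic cows (adjusted p = 0.0523 and 0.0767), MMP2 and ADAM12 against days 20-25 (0.0698 and 0.0528) and SERPINA5 on days 40-45 (0.0816) were no longer called, and MMP2 on days 150-160 against cyclic cows gained a call (0.041). Without a filter on dim probes SERPINA5 also lost its call (0.0566). CTSC against days 20-25 kept its call without 9 of 16 single arrays (adjusted p up to 0.105), and SERPINA1 on days 40-45 lost its call after normexp background correction (0.119). Named by the RefSeq table, SERPINA5 is no member, which leaves 2 calls on days 40-45. The cause was not tested in any of these.

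Cows were not paired by replicate number in the main fit. Correlations of same-numbered deviations were all positive, between 0.000858 and 0.291. Of 24 pairs 9 were over 0.1, and 9 of 16 arrays correlated best with their own number. Same-numbered arrays also share a slide, so a pairing and an effect of the slide cannot be told apart here. With the replicate number as a block, 6 members were called on days 150-160 and 2 on days 40-45 against cyclic cows, PLAUR gained a call on days 150-160 (adjusted p = 0.0465) and SERPINA5 lost its call on days 40-45 (0.0516).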

Other observations

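Updating names through the RefSeq table adds 5 genes of these families that the array lists under locus names. MMP19, a matrix metalloproteinase, differed by -1.06 on days 150-160 against cyclic cows (SE 0.45, limma adjusted p = 0.166), SERPINA14, the uterine serpin, by -2.06 (SE 1.01, adjusted p = 0.236) and CTSA, the protective protein of lysosomes, by -0.09 (adjusted p = 0.887). ADAM32 and SERPINA3-7 were not tested, with 0 and 5 of 16 arrays above background.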
